A study of Mus musculus with 6 samples.

Results

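Hippocampal RNA was compared between mice lacking inhibitor-1 and wild-type mice for 10 genes that control phosphorylation of the translation factor eIF2alpha or lie downstream of it, among 18194 genes with a probe set of their own on the array. The genes were Ppp1r15a, Ppp1r15b, Eif2ak3, Eif2s1, Atf4, Atf5, Ddit3, Trib3, Asns and Chac1, chosen by function, with earlier results of these data known. Every probe set that the platform annotation assigns to exactly 1 of these symbols was taken, which gave 17 probe sets of 9 genes. Eif2s1, which encodes eIF2alpha itself, is named only. The samples were total RNA of hippocampus, 3 labelled wild type and 3 labelled inhibitor-1 knockout, each on 1 Affymetrix mouse array. Strain, age, sex and the targeted construct are not stated in the labels, nor whether each array is a separate animal. A p-value here sets the group difference of these 6 samples against the spread within groups, moderated over probe sets. Part of that spread may be technical.

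Phosphorylated eIF2alpha slows general protein synthesis while it favours translation of ATF4, a transcription factor that switches on genes for amino acid supply and for the stress response. Protein phosphatase 1 (PP1) removes the phosphate when it is brought to eIF2alpha by Ppp1r15a (GADD34, which is itself stress-induced) or Ppp1r15b (CReP, which is made constitutively). Inhibitor-1, encoded by Ppp1r1a, restrains PP1 once protein kinase A has phosphorylated it, and in the hippocampus eIF2alpha phosphorylation is known for limiting the protein synthesis that long-term memory needs. The comparison asks whether transcripts of the eIF2alpha branch differ when inhibitor-1 is missing. The arrays measure transcripts, so neither the phosphorylation of eIF2alpha nor the ATF4 protein is seen.

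ATF4 binds, with a C/EBP partner, a composite element that contains the letters TGATGNAA. These letters were searched on both strands (as TGATGNAA and as its reverse complement TTNCATCA) in RefSeq windows of assembly GRCm38.p6 that run from 250 bases before to 50 bases after a gene's start. Windows were given for 9 of the 10 genes, with 2 for Atf5, and Ppp1r15b had none. Of the 9 genes, 3 held a match, all of them ATF4 targets: Asns, Chac1 and Trib3. Of all 32851 windows, 3.97% held a match. No match in the windows of Atf4, Atf5, Ddit3, Eif2ak3, Eif2s1 and Ppp1r15a says only that these letters are not in them. The 3 stretches are shown because they are the members whose promoter carries the letters of the ATF4 element, and their transcripts are described below. Each is written 5′ to 3′ on the strand of the gene with the match in capitals. For Asns and Chac1 the 250 bases before the start are shown, and for Trib3 the 30 bases around the match.
Asns, chr6:7693210-7693459, minus strand: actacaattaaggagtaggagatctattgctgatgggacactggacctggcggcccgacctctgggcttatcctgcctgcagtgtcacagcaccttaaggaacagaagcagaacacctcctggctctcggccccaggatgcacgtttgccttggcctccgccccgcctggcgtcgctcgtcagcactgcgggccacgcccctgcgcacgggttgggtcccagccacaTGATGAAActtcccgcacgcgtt
Chac1, chr2:119350992-119351241, plus strand: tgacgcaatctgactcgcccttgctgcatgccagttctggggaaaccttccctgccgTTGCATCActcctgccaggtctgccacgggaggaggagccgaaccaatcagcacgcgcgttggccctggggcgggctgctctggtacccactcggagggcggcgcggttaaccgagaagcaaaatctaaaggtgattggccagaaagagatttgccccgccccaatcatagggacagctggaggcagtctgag
Trib3, chr2:152344028-152344057, minus strand: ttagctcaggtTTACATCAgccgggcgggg
The match began 23 bases before the annotated start in Asns, 193 bases before it in Chac1 and 14 bases after it in Trib3. It is a description of the sequence, not a measured binding site.

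The deposited intensity of the targeted gene matched the labels on every array. Ppp1r1a was at 9061, 8370 and 10345 in wild type and at 272.5, 248.5 and 347.2 in knockout, a log2 difference of -4.93 with a limma adjusted p of 3.58e-07. Of 26999 probe sets tested, 3 passed a Benjamini-Hochberg adjusted p under 0.05 in limma, or 0.0111%, and none of them belonged to the 10 genes. The 3′ over 5′ ratio of beta-actin, a measure of RNA quality, lay between 1.24 and 1.3 for the wild-type arrays. For the knockout arrays it lay between 1.18 and 1.21, so the groups did not overlap. The same ratio for Gapdh did overlap: the knockout range (0.821 to 0.829) fell inside that of wild type (0.809 to 0.88). Markers of hippocampal neurons were present: all 9 of 10 listed markers that had a probe set passed the filter on low values. Their summed intensity ran from 185544 to 200210 over the wild-type arrays and from 168767 to 179911 over the knockout arrays, without overlap. The brightest of them, Camk2a, was at 101473 to 114397 and 92973 to 98599. It was the 1 of 9 neuron markers whose groups did not overlap, where the share over all tested probe sets was 9.89%. Other tested probe sets of Camk2a had log2 differences from -0.28 to 0.14. The sum of 9 oligodendrocyte markers did not overlap either, at 338163 to 365379 against 313424 to 327367, but the mean log2 level of the same markers did (from 14.05 upward in wild type and up to 14.13 in knockout), with 3 of 9 differences above 0. For the neuron markers 2 of 9 were above 0, and the mean log2 level was 13.41 to 13.42 and 13.24 to 13.41. At the digits given, these ranges met at 13.41, unlike the sums, to which Camk2a gave the most. The summed intensity of 11 choroid plexus and ependymal markers was 201278 to 287441 and 226102 to 278120, with 10 of 11 log2 differences above 0 (median 0.59). Ttr, by far the brightest of these 11, was at -0.02. Their mean log2 level was 11.15 to 12.30 and 11.92 to 12.75. For 10 meningeal and fibroblast markers the sum was 37966 to 45279 and 44003 to 62374, with 10 of 10 differences above 0 (median 0.42). The mean log2 level of these 10 was 11.12 to 11.35 and 11.19 to 11.81. Sums of 6 astrocyte (175071 to 182567 and 179204 to 190324), 6 microglia (48064 to 50804 and 48120 to 53056) and 6 endothelial and mural cell markers (31551 to 33694 and 28314 to 38347) overlapped. By single markers, groups did not overlap for 3 of 9 oligodendrocyte, 2 of 10 meningeal and fibroblast and 2 of 6 astrocyte markers. The count was 0 for the choroid plexus, microglia and endothelial lists, beside the same 9.89% of probe sets. Every listed marker with a probe set was above the filter, and in whole tissue fewer cells of a type and less RNA per cell cannot be told apart. The part of these values in the results below was not tested.

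No member of the eIF2alpha branch passed the test across all probe sets. Of the 17 member probe sets, 13, covering all 9 genes, lay above the filter that leaves out the dimmest 40% (a mean log2 level of 8.44), and 4 lay below it. Of the 13 tested, 0 had an adjusted p under 0.05, the lowest being 0.988. At an unadjusted limma p under 0.05 there was 1 of 13, a probe set of Asns, or 7.69% against a background of 4.38% over all tested probe sets. The 3 wild-type and 3 knockout values did not overlap for 3 of the 13 (1 higher, 2 lower in knockout), or 23.1% against 9.89% of all tested. The median log2 difference, knockout minus wild type, was 0.069 over the 13 and 0.004 over all tested probe sets, and the median size without sign was 0.143 and 0.119. The 13 differences ran from -0.29 to 0.69, with 8 above and 5 below 0.

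**Figure D1:**
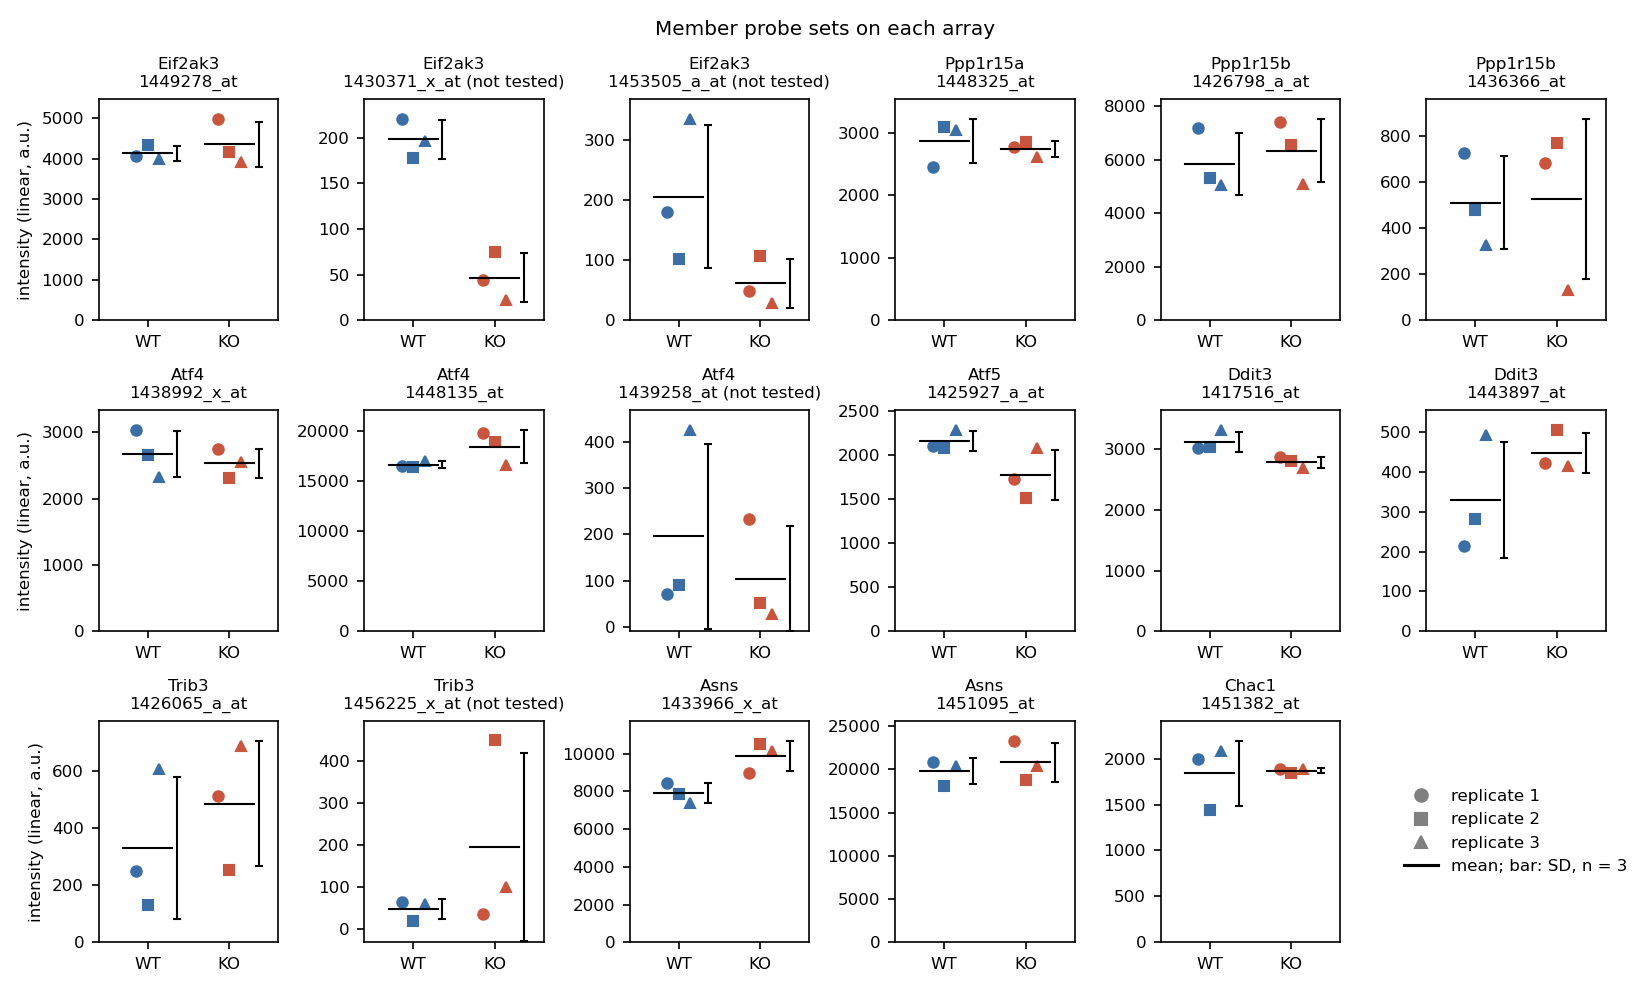
Deposited intensity (linear scale, arbitrary units, each panel with its own axis) of the 17 member probe sets on 3 wild-type (WT, blue) and 3 inhibitor-1 knockout (KO, red) arrays; each marker is 1 array, lines are means and bars SD. Outside the Asns 1433966_x_at, Atf5, Ddit3 1417516_at and Eif2ak3 1430371_x_at panels the groups overlap.

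The kinase PERK and the PP1 targeting subunits showed no difference past the threshold. Eif2ak3, which encodes PERK, an eIF2alpha kinase that senses unfolded protein in the endoplasmic reticulum, had intensities of 4060, 4332 and 3986 in wild type and 4977, 4154 and 3927 in knockout at probe set 1449278_at. Knockout replicate 1 was the highest and knockout replicate 3 the lowest of the 6, so the wild-type values lay inside the knockout range. The log2 difference was 0.07 (SE 0.12, 95% interval -0.19 to 0.33, limma adjusted p = 0.992). Ppp1r15a, at 1448325_at, was at 2457, 3088 and 3047 in wild type and at 2765, 2844 and 2608 in knockout. All 3 knockout values fell between the lowest and the highest wild-type value, and the log2 difference was -0.06 (SE 0.13, interval -0.35 to 0.24, limma adjusted p = 0.997). In fold terms that interval runs from 0.783 to 1.18 times the wild-type level.

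Ppp1r15b, the constitutive counterpart, was at 7186, 5321 and 5043 in wild type and 7399, 6560 and 5077 in knockout at 1426798_a_at. Replicate 1 was the highest array of each group and replicate 3 the lowest, and the spread within a group (SD 1166 and 1176, n = 3) exceeded the difference of the means of 5850 and 6346. The log2 difference was 0.12 (SE 0.16, interval -0.23 to 0.47, limma adjusted p = 0.991), and it was -0.0014 without knockout replicate 1. A dimmer probe set of Ppp1r15b, 1436366_at, ran from 327.1 to 726.4 in wild type and from 131.2 to 771 in knockout, with a log2 difference of -0.21 (SE 0.59, limma adjusted p = 0.998). Its interval, -1.51 to 1.08, was the widest of the 13.

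Atf4, the transcription factor whose translation phosphorylated eIF2alpha favours, was measured by 3 probe sets. The brightest, 1448135_at, was at 16553, 16373 and 17023 in wild type and at 19852, 18860 and 16607 in knockout. The wild-type arrays were close together (SD 335.3 around 16650, n = 3), while knockout replicates 1 and 2 lay above all of them and knockout replicate 3 among them. The log2 difference was 0.14 (SE 0.08, interval -0.03 to 0.32, limma adjusted p = 0.988), an interval of 0.977 to 1.25 in fold terms. It was 0.09 without knockout replicate 1 and 0.22 without knockout replicate 3. The mean over all 3 Atf4 probe sets was -0.25, which counts the dim 1439258_at, below the filter, at -0.83 (SE 0.88). The probe set 1438992_x_at, whose suffix marks probes that also match other sequences, was at 3037, 2659 and 2334 in wild type and 2746, 2312 and 2550 in knockout, a log2 difference of -0.07 (SE 0.14, limma adjusted p = 0.997). The tested Atf4 probe sets thus differed in sign and neither passed. Atf4 lies on chromosome 15, as does Ppp1r1a, 221 measured genes away in the order of the RefSeq annotation (490 measured genes on the chromosome).

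Atf5, a relative of ATF4 that is translated under the same control, was at 2110, 2087 and 2286 in wild type and at 1729, 1513 and 2083 in knockout at 1425927_a_at. All knockout values were below all wild-type values, with knockout replicate 3 only just so. The log2 difference was -0.29 (SE 0.16, interval -0.65 to 0.06, limma adjusted p = 0.988), and it was -0.41 without knockout replicate 3 and -0.18 without knockout replicate 2. Ddit3, which encodes the stress factor CHOP, was likewise without overlap at 1417516_at: 3012, 3032 and 3310 in wild type against 2863, 2800 and 2681 in knockout. Its log2 difference was -0.16 (SE 0.12, interval -0.42 to 0.10, limma adjusted p = 0.988). The dim Ddit3 probe set 1443897_at had the opposite sign, with 213.1, 281.8 and 492.8 in wild type and 421.6, 504.3 and 414.3 in knockout. Its difference of 0.50 (SE 0.40, limma adjusted p = 0.988) came with overlapping groups and ran from 0.24 without wild type replicate 1 to 0.82 without wild type replicate 3. Thus the probe sets of Ddit3 do not give a single direction, and their mean difference was 0.17.

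**Figure D2:**
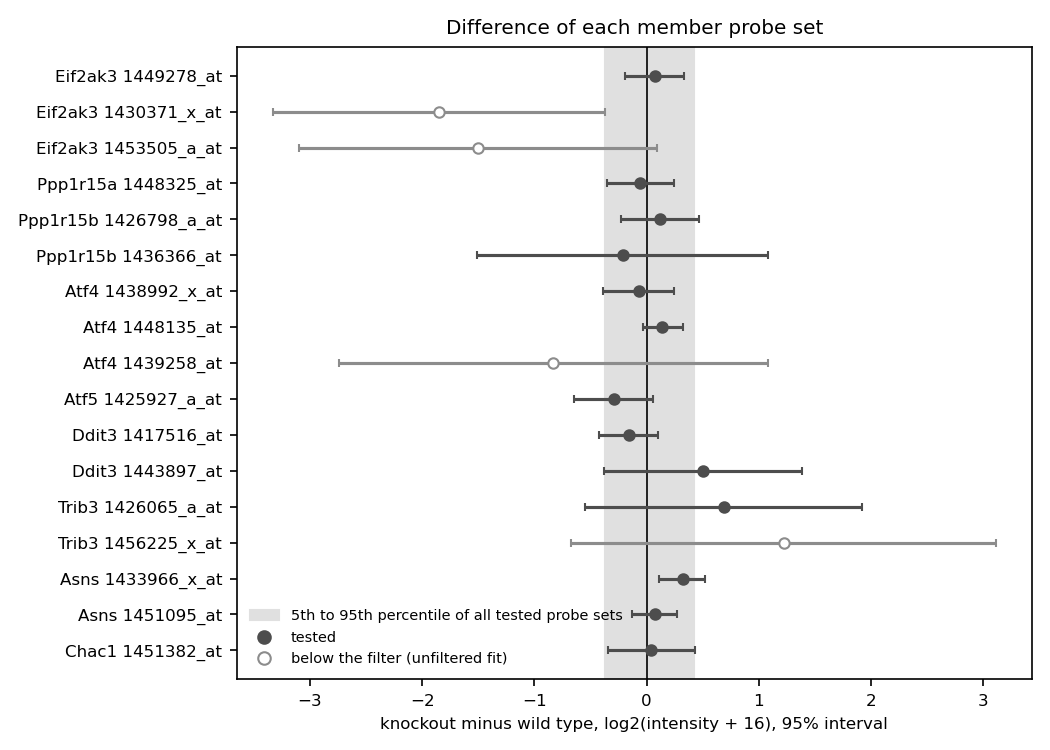
Difference between knockout and wild type (x axis, log2 of intensity + 16) with its 95% interval for each member probe set (y axis), filled for the 13 tested and open for the 4 below the filter; the grey band runs from the 5th to the 95th percentile of all tested probe sets, -0.37 to 0.42. Asns 1433966_x_at (0.11 to 0.52) is the tested member whose interval lies to the right of 0.

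Of the ATF4 target enzymes, Asns had the smallest p of the 13, but at 1 of its probe sets. Asns encodes asparagine synthetase, which makes asparagine from aspartate and glutamine. At 1433966_x_at the intensities were 8450, 7883 and 7400 in wild type and 8970, 10495 and 10133 in knockout. Every knockout array was above every wild-type array, at a mean of 9866 ± 796.7 (SD, n = 3) against 7911 ± 525.5 (SD, n = 3). The log2 difference was 0.32 (SE 0.09, interval 0.11 to 0.52), 1.25 times the wild-type level, with a limma unadjusted p of 0.00547 and an adjusted p of 0.988. The suffix again marks probes that also match other sequences. The other probe set of Asns, 1451095_at, was at 20896, 18078 and 20421 in wild type and 23280, 18721 and 20414 in knockout. Here the groups overlapped and the log2 difference was 0.07 (SE 0.09, interval -0.13 to 0.27, limma adjusted p = 0.991), with -0.02 without knockout replicate 1. The 2 probe sets of Asns therefore share the sign over all arrays and differ in whether the groups separate.

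Chac1 encodes an enzyme that degrades glutathione. At 1451382_at it was at 1997, 1436 and 2083 in wild type and 1886, 1839 and 1884 in knockout, so the knockout arrays lay inside the wild-type range. The spread was 1.43% of the mean in knockout and 19.1% in wild type, where replicate 2 was the low array, and the log2 difference was 0.04 (SE 0.18, interval -0.34 to 0.43, limma adjusted p = 0.998). Without wild type replicate 2 it was -0.12. Trib3, a pseudokinase that acts back on ATF4 and CHOP, was dim: 250.1, 130.1 and 608.3 in wild type and 514.7, 254 and 689.8 in knockout at 1426065_a_at. Replicate 2 was the lowest array and replicate 3 the highest in each group. The log2 difference of 0.69 (SE 0.56, interval -0.55 to 1.92, limma adjusted p = 0.988) was the largest among the 13, and it ran from 0.19 without wild type replicate 2 to 1.24 without wild type replicate 3, and was 0.38 with the largest pseudocount. Of the 3 targets whose window holds the letters of the ATF4 element, the brightest probe sets thus had differences of 0.07 for Asns, 0.04 for Chac1 and 0.69 for Trib3, none past the threshold.

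The 4 probe sets below the filter were looked at in a fit without that filter, where 0 of them passed (limma adjusted p = 0.986 for each). The intensity at the filter was 332.3, and 3 of the 4 reached above it on 1 array each. Of Eif2ak3, 1430371_x_at was at 220.2, 177.3 and 196 in wild type and 44, 74.6 and 22 in knockout, and 1453505_a_at was at 180.6, 102.4 and 335.6 in wild type and 48.3, 107.6 and 29.2 in knockout. The first of these did not overlap between groups and the other did by 1 array. No share of non-overlap over the unfiltered probe sets was counted. The log2 differences were -1.85 (SE 0.68, interval -3.33 to -0.37, limma unadjusted p = 0.0184) and -1.50 (SE 0.73, interval -3.10 to 0.09, limma unadjusted p = 0.0627). Over 10 settings without the filter, the unadjusted limma p was under 0.05 in 9 for the first and in 2 for the other. At these low intensities the size depends on the pseudocount: from the smallest to the largest tried it went from -2.21 to -0.59 and from -1.76 to -0.52. They are assigned through the same source sequence, so they are not independent of one another, and the bright Eif2ak3 probe set did not share their direction. Atf4 1439258_at ran from 71.1 to 426.5 in wild type and from 27.5 to 234.2 in knockout. Trib3 1456225_x_at ran from 19.3 to 64.6 and from 34 to 450.7, where knockout replicate 2 was the high array and the next reached 98.4.

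Genes around the members were then described by lists, each gene by its brightest probe set. None of their genes passed an adjusted p under 0.05 (limma, lowest adjusted p 0.988 in each list). All 3 of the other eIF2alpha kinases had differences above 0, with a median of 0.43 against 0.000 over all 12493 genes. It was 2 of 3 when the tested probe sets of a gene were averaged, and 2 of 3 without replicate 1 of both groups, a setting chosen after the data were seen. Eif2ak4 (GCN2, which senses uncharged tRNA) was at 969.4, 1135 and 1289 in wild type and 1323, 1599 and 1667 in knockout, without overlap. Its log2 difference was 0.43 (SE 0.20, limma unadjusted p = 0.049, adjusted p = 0.988), while its other tested probe set was at -0.39. It was the 1 of the 3 kinases at an unadjusted limma p under 0.05, where the share over all tested probe sets was 4.38%. Groups did not overlap in 9.89% of all tested probe sets. Eif2ak2 (PKR, which senses double-stranded RNA) had a difference of 0.44 (SE 0.40, limma adjusted p = 0.988) with overlapping groups, and the remaining kinase of the list was at 0.03.

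Of 9 genes for eIF2 and eIF2B subunits and the related factors Eif2a and Eif5, 3 were above and 6 below 0 (median -0.02, range -0.20 to 0.04). The smallest p-values belonged to Eif2s3x, the gamma subunit of eIF2 (-0.13, SE 0.09), and Eif2b3, a subunit of the exchange factor (-0.20, SE 0.15). Of 6 genes for the PP1 catalytic subunits and cofactors, 4 were above and 2 below 0 (median 0.01). They were led by Nck1, an adaptor (0.35, SE 0.17, with its other probe set at -0.30), and Ppp1ca, the alpha catalytic subunit (0.12, SE 0.08).

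Of 48 other ATF4 targets, 45 had a probe set and 42 were tested, with 23 above and 19 below 0 and a median of 0.01. At an unadjusted limma p under 0.05, 1 of the 42 was higher and 0 lower, where the share over all tested probe sets was 4.38%. That share counts probe sets, whereas the 42 are genes by their brightest probe set. The 1 gene was Herpud1, which serves the disposal of misfolded proteins from the endoplasmic reticulum, at 8157, 7149 and 6437 in wild type and 10527, 11233 and 7451 in knockout (log2 difference 0.41, SE 0.15, limma adjusted p = 0.988). Knockout replicate 3 lay within the wild-type range, and the other Herpud1 probe set was at 0.24. Cth, of cysteine synthesis, followed at 0.61 (SE 0.31, limma adjusted p = 0.988). Of 25 chaperone and unfolded protein response genes, 24 were tested, with 11 above and 13 below 0 and a median near 0. Canx, the membrane chaperone calnexin, was the 1 gene of these 24 at an unadjusted limma p under 0.05, beside the same share of 4.38% over probe sets. It was at 28819, 26724 and 24987 in wild type and 31173, 31500 and 32958 in knockout, without overlap (log2 difference 0.25, SE 0.07, limma adjusted p = 0.988), while its 2 other probe sets were at -0.12 and -0.01. Next was Xbp1, a transcription factor of that response, at 0.21 (SE 0.13, limma adjusted p = 0.988).

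**Figure D3:**
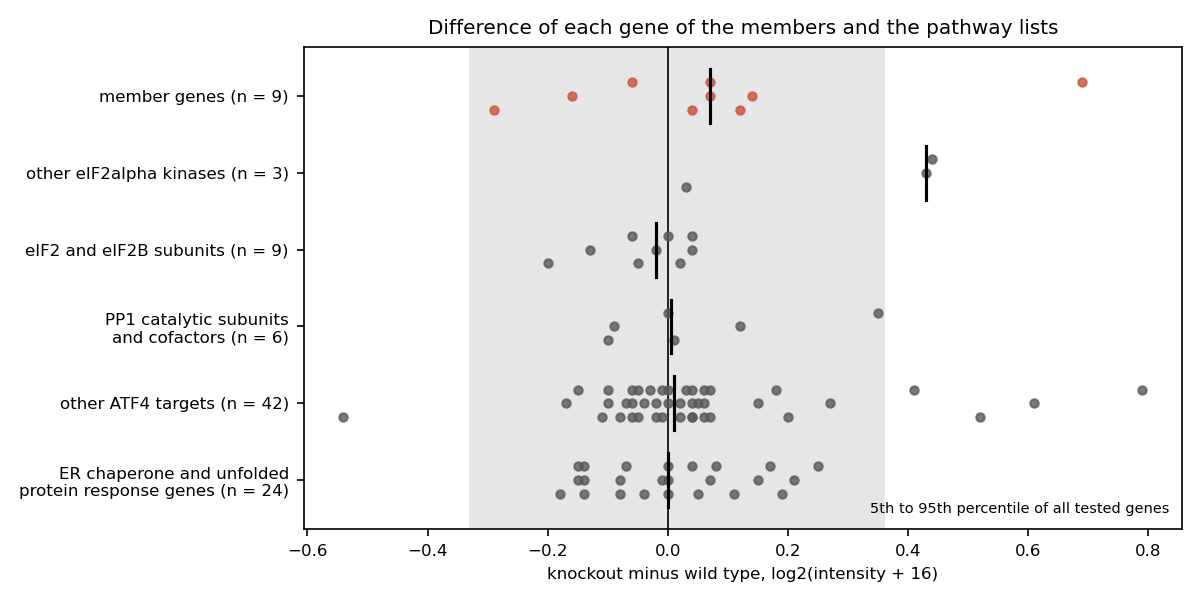
Difference between knockout and wild type (x axis, log2 of intensity + 16) of each member gene (red) and each gene of 5 lists (grey), 1 point a gene by its brightest probe set, with the list's median as a black line; the grey band is the 5th to 95th percentile of all 12493 genes, -0.33 to 0.36. The medians of the members (0.07), the other ATF4 targets (0.01) and the chaperone list lie near 0, and that of the 3 other kinases lies at 0.43.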

How the data were processed

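Mouse hippocampal RNA was hybridised to 6 single-colour Affymetrix arrays, 3 per genotype. The table deposited by the authors holds linear intensity values per probe set; which software made them is not stated by the labels. The mean of the intensities without the outer 2% was 2500 on each array, so the table had been scaled beforehand. Of 45101 probe sets, the platform annotation named 1 symbol for 34958, several for 932 and none for 9211; genes are named only from those with 1. Matched by gene ID, the symbols of all 9 members with a probe set were found in the RefSeq table of assembly GRCm38.p6.

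Values were transformed as log2(intensity + 16), a scale on which changes of dim probe sets come out too small. After removal of 64 control probe sets and of the dimmest 40% by mean, 26999 were tested with limma 3.58.1 in R 4.3.3 (two-sided, 1 term for genotype, moderated variances that follow intensity, Benjamini-Hochberg over all of them). The fit was tested on simulated data. The members, the gene lists and the settings were chosen with earlier results of these data known. The genes named are all members, Ppp1r1a and the 2 genes of smallest p in each list around the members. The markers Camk2a and Ttr are named because each was the brightest of its list. As alternatives, the pseudocount, filter, scaling and variance model were changed, arrays were weighted or left out in turn, replicate numbers were used as a block, and the probe sets of a gene were averaged. The number of arrays, 3 a group, limits the precision, and no detection calls were used.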

Additional observations from a re-analysis of the deposited data

How the results depend on the processing

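In every alternative run, 0 member probe sets passed an adjusted p under 0.05 (lowest limma adjusted p 0.177). The cause of the changes below was not tested. Leaving out replicate 1 of both groups, and repeats of the fit without the filter, were chosen after seeing the data. Tested probe sets past the threshold numbered 3, but 4 with the largest pseudocount, the dimmest 20% left out, quantile normalization, median centring, robust empirical Bayes or array weights, 1 without the intensity trend, 11 with the replicate block, 3 to 5 leaving out 1 array (5 without knockout replicate 1) and 14 without replicate 1 of both groups. Member probe sets at an unadjusted limma p under 0.05 numbered 1, but 2 without the filter, 2 with quantile normalization, 0 with median centring, and 1 to 3 leaving out 1 array (3 without knockout replicate 3). Asns 1433966_x_at was under 0.05 in 19 of 20 settings, with differences of 0.27 to 0.43. Leaving out 1 array, or replicate 1 of both groups, the differences ran from -0.0014 to 0.27 for Ppp1r15b 1426798_a_at, -0.65 to 0.56 for Ppp1r15b 1436366_at, -0.17 to 0.02 for Atf4 1438992_x_at, -0.17 to 0.00051 for Ppp1r15a, -0.04 to 0.14 for Eif2ak3 1449278_at, -0.02 to 0.14 for Asns 1451095_at and -0.12 to 0.14 for Chac1. Over 280 comparisons of member probe sets the sign changed in 9, none of them called. These lay in 7 probe sets: without knockout replicate 1 for Ppp1r15b 1426798_a_at, Eif2ak3 and Asns, without wild type replicate 1 for Ppp1r15b 1436366_at and Atf4, without knockout replicate 3 for Ppp1r15b 1436366_at, without wild type replicate 2 for Ppp1r15a and Chac1, and without replicate 1 of both groups for Eif2ak3 (-0.04). With the mean of all its probe sets, Eif2ak3 was at -1.09, Atf4 at -0.25 and Ppp1r15b at -0.05, each of the opposite sign to its brightest probe set, as was Ddit3 at 0.17. Asns was at 0.19 and Trib3 at 0.95. For Eif2ak3, Atf4 and Trib3 these means count probe sets below the filter. No label pairs the samples, and same-numbered arrays correlated at 0.241, 0.0542 and 0.0998 in their deviations from the group means. Arrays of unlike number correlated at -0.165 to 0.11. Trib3, Ppp1r15b 1436366_at and Ddit3 1443897_at were dim, with SE of 0.40 to 0.59 against a median of 0.177 over all tested probe sets.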
